A study of Mus musculus with 14 samples.

Results

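Nanog bait 2 is 1 of the 3 baits from which UMI-4C contact profiles were collected at the mouse Stag1 locus, and its libraries make up 4 of the 14 in the series. They are 3 libraries of embryonic stem cells (ESC 1, ESC 2 and ESC 3) and 1 library of neural stem cells (NSC). The 4 libraries were chosen by the bait named in their titles, and no measured value entered the choice. The ESC were 2i-LIF grown, a culture that keeps such cells in naive pluripotency, and the study's methods name E14 as its ESC line. The NSC were derived from ES cells and grown with EGF and FGF. Both were untreated, no genotype is given, and nothing in the labels says whether the ESC libraries came from separate cultures, so p-values measure only the spread between these libraries, which may be technical. What the word Nanog in the name of the bait stands for is not stated in the labels. Contact counts carry no expression, so the cell types could not be checked against marker genes.

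UMI-4C records the sequences found next to a chosen site, the bait, in the nucleus. Crosslinked chromatin is cut with a restriction enzyme and ligated, and molecules joined to the bait are sequenced. Each is counted once by its sheared end, which serves as a unique molecular identifier (UMI). Contacts of any bait fall steeply with distance, because neighbouring stretches of a chromosome meet often. On top of this decay, cohesin, a ring complex that extrudes loops of chromatin until it meets the DNA-binding protein CTCF, raises contacts inside domains and lowers them across their borders. Stag1 encodes a subunit of this same complex, and the bait looks out from inside its gene.

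Bait 2 lies on chromosome 9 at position 100641698 (GRCm38), in an intron of Stag1 (ENSMUSG00000037286.15, chr9:100597798-100959375, plus strand). Only 1 annotated transcript starts on the lower side of the bait, at 100597798 and 43.9 kb away, which is called the first Stag1 start here. The canonical start at 100643448 lies 1750 bp on the other side, inside the 10 kb on either side of the bait that were left out, so contacts with it were not measured. The other 2 baits of the series served as landmarks: bait 1 at 100619989, 21.7 kb away in the same gene, and the CTCF bait at 100455377, 186 kb away near Il20rb. Sequences below are from GRCm38, plus strand, with GATC, at which all fragment ends of chromosome 9 lay, in capitals. They show the site from which every contact was measured, and the 2 landmarks whose windows held the largest called differences, the 200 bases just before the first Stag1 start (towards ESC) and those around the CTCF bait (towards NSC). They span chr9:100641598-100641797 (intron of Stag1), chr9:100597598-100597797 (intergenic) and chr9:100455277-100455476 (intergenic).
bait 2: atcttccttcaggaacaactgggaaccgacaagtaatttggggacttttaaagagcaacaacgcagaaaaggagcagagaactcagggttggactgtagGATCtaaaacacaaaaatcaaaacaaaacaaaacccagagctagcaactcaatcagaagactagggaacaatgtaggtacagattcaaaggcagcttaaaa
before the first Stag1 start: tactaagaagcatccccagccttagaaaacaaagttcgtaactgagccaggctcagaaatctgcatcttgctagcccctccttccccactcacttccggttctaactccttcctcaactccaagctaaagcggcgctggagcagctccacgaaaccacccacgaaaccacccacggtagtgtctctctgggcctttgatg
CTCF bait: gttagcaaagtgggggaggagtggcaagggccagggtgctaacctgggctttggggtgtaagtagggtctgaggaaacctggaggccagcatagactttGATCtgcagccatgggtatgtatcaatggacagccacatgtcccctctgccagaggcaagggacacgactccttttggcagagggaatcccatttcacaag
Both baits have 1 GATC in these stretches, the end that was captured, and the sequence before the Stag1 start has 0.

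The libraries held 21866 UMIs in ESC 1, 7172 in ESC 2, 7425 in ESC 3 and 19762 in NSC. Between 10 kb and 1 Mb from the bait, called the region here, they held 7685, 3221, 3609 and 6040. A count of 3 UMIs was thus between 0.0390% and 0.0931% of a library's region. ESC 1 and NSC stood apart from the others in 3 ways. They were the deepest. The share of UMIs outside 10 kb that lay on chromosome 9 was 66.9% in ESC 1 and 63.0% in NSC, against 75.4% in ESC 2 and 81.7% in ESC 3, and the share within 1 Mb was 36.9% and 32.0%, against 51.6% and 55.7%. They also shared 882 of their fragment ends on other chromosomes, 12.9% of those of the smaller library, whereas the other 5 pairs of these libraries shared between 0% and 0.423%. Of 39 measures of the profile, NSC lay outside the range of the ESC libraries in 38, and ESC 1 was the ESC library closest to it in 29 of them. Each result is therefore given by library, so that NSC can be read against ESC 1 and against the other 2. Without the shared ends, the ESC mean minus NSC was 9.55 percentage points for the share on chromosome 9 (11.7 with them), −2.21 for the share at 1 Mb to 10 Mb (−1.68) and −3.29 for the share beyond 10 Mb (−2.72). With each end counted once the last 2 were −0.017 and −1.38, and for ESC 1 alone −0.39 and −0.64. These ends lie on other chromosomes, so leaving them out cannot change any share within the region. Sharing between ESC 1 and NSC within the region was not tested, so whether they are independent there is not known. The part of depth and of the lower share on chromosome 9 in the differences was not tested. With 1 library against 3, an exact permutation test cannot give a p under 0.25, so shares are described by the spread of ESC and by 95% Wilson intervals, which cover counting error only.

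NSC contacts were spread over longer distances than those of any ESC library. The share of the region's UMIs at 10 kb to 25 kb was 11.6%, 14.3% and 12.8% in ESC 1, ESC 2 and ESC 3 and 9.83% in NSC. At 25 kb to 50 kb it was 10.5%, 12.8% and 12.4% in ESC and 7.37% (6.74% to 8.05%) in NSC. At 50 kb to 100 kb the ESC libraries had 21.2%, 24.9% and 25.8% and NSC 16.1% (15.2% to 17.1%). NSC lay below every ESC library in all 3 of these bands.

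The order turned beyond 100 kb. Between 100 kb and 200 kb the shares were 20.2%, 19.2% and 19.1% in ESC and 21.3% (20.3% to 22.4%) in NSC, whose interval overlapped that of ESC 1 (19.4% to 21.2%). Between 500 kb and 1 Mb NSC had 19.1% (18.1% to 20.1%), against 11.4%, 6.77% and 7.34% in ESC. This last band held the widest gap. The ESC mean of 8.50% ± 2.52 (SD, n = 3) minus NSC was −10.6 percentage points, and ESC 1 minus NSC was −7.69. Counting each fragment end once turned the small differences at 100 kb to 200 kb and 200 kb to 500 kb around, and a region of 500 kb widened them, as given with the other alternatives.

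**Figure D1:**
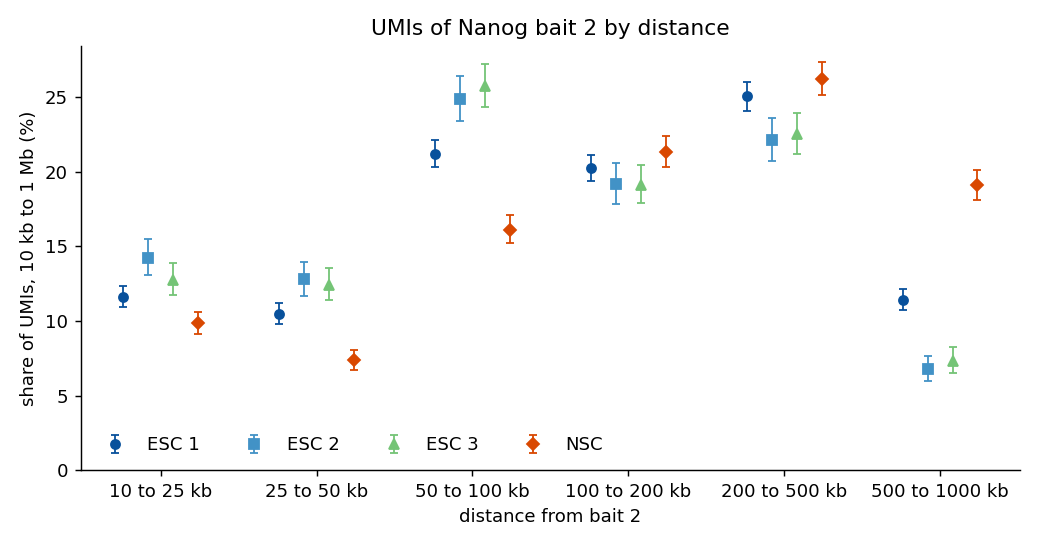
Share of the region's UMIs (y axis, %) in 6 bands of distance from bait 2 (x axis) for each of the 4 libraries, with 95% Wilson intervals as bars. NSC (orange) is lowest in the 3 bands within 100 kb and highest from 500 kb to 1000 kb, at 19.1%, and ESC 1 is the ESC library nearest to it in that band.

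The same shift showed in other measures of distance. The slope of log contact density on log distance was −0.88, −1.05 and −1.01 in ESC and −0.71 in NSC, so contacts fell off less steeply in NSC. The upper quartile of contact distance was 306 kb, 239 kb and 249 kb in ESC and 415 kb in NSC. On the 9318 fragment ends available in the region, thinned to 3221 UMIs each, ESC libraries were expected to touch 2015, 1836 and 1822 different ends and NSC 2260. NSC contacts were thus scattered over more ends at an equal number of UMIs in the region, and ESC 1 lay between NSC and the other ESC libraries in each of these measures.

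Contacts leaned to 1 side of the bait at most distances, and the lean differed by cell type and distance. On the side of lower coordinates, which holds Slc35g2, Nck1, Il20rb and the CTCF bait, lay between 57.8% and 74.8% of the UMIs in each band from 10 kb to 200 kb, in every library. From 200 kb to 500 kb the lower side held only 22.4%, 16.7% and 17.9% in ESC and 26.1% (24.0% to 28.3%) in NSC. This drop falls past the CTCF bait, while the other side still runs through Stag1 to Pccb and Msl2.

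Both cell types shared this shape, but NSC departed from ESC in opposite directions at 25 kb to 50 kb and at 100 kb to 200 kb. At 25 kb to 50 kb, the band with the first Stag1 start, the lower side had 62.6%, 69.2% and 67.4% in ESC and 57.8% (53.1% to 62.3%) in NSC. At 100 kb to 200 kb, the band with the CTCF bait and Il20rb, it had 62.3%, 59.2% and 59.0% in ESC and 69.5% (66.9% to 72.0%) in NSC. NSC lay outside the ESC range both times, and ESC 1 minus NSC was 4.86 percentage points in the first band and −7.24 in the second. In the first band the intervals of ESC 1 (59.2% to 65.9%) and NSC overlapped.

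**Figure D2:**
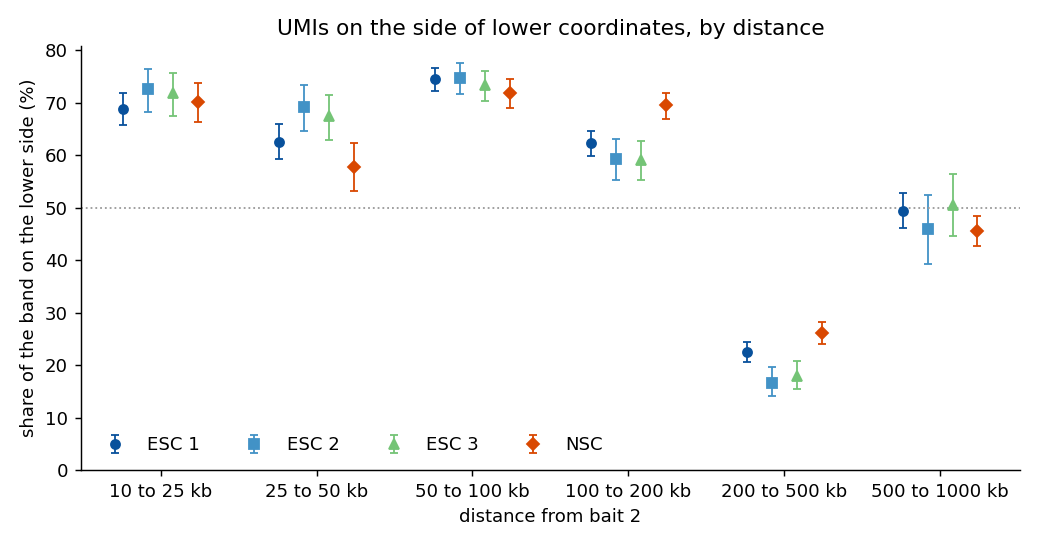
Percentage of the UMIs of each distance band that lay on the side of lower coordinates (y axis), for 6 bands (x axis) and 4 libraries, with 95% Wilson intervals as bars and a dotted line at equal sides. NSC (orange) is below ESC at 25 to 50 kb, at 57.8%, above it at 100 to 200 kb, at 69.5%, and all libraries are below 30% at 200 to 500 kb.

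Along the locus, counts in windows of 20 kb were compared between the 3 ESC libraries and NSC with edgeR's quasi-likelihood test, each library being scaled to its own UMIs in the region. The lone NSC library is assumed to vary like the ESC libraries. Of 100 windows with at least 10 UMIs over the 4 libraries, 3 were called at a Benjamini-Hochberg adjusted p of 0.05 (3% of windows), 1 higher in ESC (1%) and 2 higher in NSC (2%). An unadjusted p under 0.05 was reached by 22 windows. NSC lay below all ESC libraries in 15 windows (15%) and above all of them in 63 (63%). The median log2 fold change of ESC over NSC was −0.76 over all windows, since NSC had the larger share in most distant windows. With TMM factors this median was −0.27 and with DESeq2 −0.10, so single windows are best read against it.

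The count of calls depended strongly on the libraries and the method. Without ESC 1 it was 48 (7 higher in ESC, 41 in NSC), without ESC 2 it was 5 and without ESC 3 it was 1. The 3 windows were among the 48. DESeq2 called 15 windows, all higher in ESC, of which 1 was among the 3, and TMM factors, all UMIs outside 10 kb as library size and each fragment end counted once gave 0 calls each (25, 18 and 2 windows at an unadjusted p under 0.05).

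The window called higher in ESC was chr9:100580001-100600000, which holds the first Stag1 start and 53 GATC sites. It had 458 UMIs (5.96% of the region) in ESC 1, 286 (8.88%) in ESC 2 and 287 (7.95%) in ESC 3, and 237 (3.92%, interval 3.46% to 4.44%) in NSC. NSC was lowest and ESC 1 the nearest to it. The log2 fold change was 0.93 ± 0.27 (SE), with an adjusted p of 0.0249 (edgeR). It was positive under every alternative that kept 20 kb windows, between 0.39 with the distance band as library size and 1.70 with DESeq2, but the adjusted p rose to 0.357 with the distance band, 0.0979 with TMM factors, 0.0942 with a region of 500 kb, 0.257 with all UMIs outside 10 kb as library size, 0.618 with each end counted once and 0.409 without ESC 3.

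The neighbouring window chr9:100600001-100620000, which holds the bait 1 site, gave nearly the same picture. It had 479 UMIs (6.23%) in ESC 1, 271 (8.41%) in ESC 2, 301 (8.34%) in ESC 3 and 263 (4.35%) in NSC, a log2 fold change of 0.80 ± 0.27 (SE) with an adjusted p of 0.0568 (edgeR), just short of the threshold. The other 8 windows centred within 100 kb of the bait, on both of its sides, all had NSC as the lowest library as well. On the log2 scale these 10 windows ranged from 0.28 to 0.93, with a median of 0.45.

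Both windows called higher in NSC lay next to each other at Il20rb, a receptor subunit of the interleukin-20 family, on the lower side. The first, chr9:100440001-100460000, holds the CTCF bait and the 3′ end of Il20rb. It had 177 UMIs (2.30%) in ESC 1, 70 (2.17%) in ESC 2 and 48 (1.33%) in ESC 3, and 230 (3.81%, interval 3.35% to 4.32%) in NSC. NSC was above every ESC library, and ESC 1 was again the nearest. The log2 fold change was −0.94 ± 0.20 (SE), with an adjusted p of 0.000291 (edgeR).

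The second, chr9:100460001-100480000, lies in the body of Il20rb. It had 130 UMIs (1.69%), 34 (1.06%) and 52 (1.44%) in the ESC libraries and 156 (2.58%, interval 2.21% to 3.01%) in NSC. Its log2 fold change was −0.83 ± 0.20 (SE), with an adjusted p of 0.00164 (edgeR). Both fold changes were close to the median of all windows (−0.76) but far from that of the 10 windows between 100 kb and 200 kb from the bait (0.02). Scaled to the distance band they were −0.81 and −0.70, with adjusted p of 0.00878 and 0.0223 (edgeR). Neither passed with TMM factors (adjusted p = 0.335 and 0.421) or with DESeq2 (adjusted p = 0.642 and 0.788), and with each fragment end counted once they were −0.09 and −0.06. Without ESC 3 the first of the 2 did not pass either (adjusted p = 0.109).

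Between these windows and the Nck1 start, no window was called by edgeR. The window chr9:100480001-100500000 had 2.08%, 2.33% and 1.94% in ESC and 2.38% in NSC, which was the highest (log2 fold change −0.18). The windows chr9:100500001-100520000 and chr9:100520001-100540000, over Nck1, an adaptor protein of tyrosine kinase signalling, had log2 fold changes of 0.10 and 0.02. In the second of them the shares were 4.10%, 3.48% and 4.16% in ESC and 3.87% in NSC. The next window, with the Nck1 start, was the highest of all windows in NSC, at 5.53%, and held 6.62%, 8.01% and 8.62% in ESC.

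Ratios of windows within a library do not depend on any scaling between libraries. The window of the first Stag1 start and that of the CTCF bait have 53 and 54 GATC sites. The ratio of their UMIs was 2.59 (2.18 to 3.08) in ESC 1, 4.09 (3.15 to 5.31) in ESC 2 and 5.98 (4.40 to 8.12) in ESC 3, and 1.03 (0.859 to 1.24) in NSC. From bait 2, the window of the first Stag1 start was thus met several times as often as that of the CTCF bait in ESC, and about as often in NSC. The windows are centred 51.7 kb and 192 kb from the bait, so a less steep fall with distance, as in NSC, also lowers this ratio. The part of that general shift in the ratio was not tested. This pair was chosen after the values were seen, so it is a description, with 95% intervals for counting error. In numbers of different ends rather than UMIs the ratio was 1.16, 1.88 and 2.56 in ESC and 1.09 in NSC. That form depends on depth, and the libraries with the most UMIs in the region, ESC 1 and NSC, were close in it. Of the ends in the Stag1 window, which lie on both sides of 53 GATC sites, 96, 96, 87 and 94 had been seen, so a count of ends could hardly differ there, while the CTCF bait window had 83, 51, 34 and 86.

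The second ratio set the Stag1 start against the Nck1 start, 2 windows within 100 kb of the bait. It was 0.900 (0.793 to 1.02), 1.11 (0.937 to 1.31) and 0.923 (0.786 to 1.08) in ESC and 0.710 (0.601 to 0.838) in NSC. NSC was the lowest, and its interval overlapped that of ESC 1 and of ESC 3.

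The fall in contacts past the window of the CTCF bait was present in both cell types. Over the 40 kb from the CTCF bait window towards bait 2 (88 GATC sites), the libraries had 3.49, 1.18 and 1.14 UMIs per GATC site in ESC and 4.39 in NSC. Over the 40 kb beyond (76 sites) they had 1.43, 0.421 and 0.632 in ESC and 1.39 in NSC. The fall was 2.43-fold (1.95 to 3.03), 2.81-fold (1.89 to 4.17) and 1.80-fold (1.28 to 2.54) in ESC and 3.14-fold (2.54 to 3.90) in NSC. NSC had the steepest fall, but its interval overlapped that of ESC 1 and ESC 2, and only touched that of ESC 3. These stretches too were chosen after the values were seen. The inner one starts at 100440001, on the far side of the CTCF bait. It is made up of the 2 windows called higher in NSC, so the steeper fall in NSC is not a separate result.

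Over Stag1 itself, 19 windows were tested. Of these, 17 had a positive fold change (26 of all 100), with a median of 0.34, against −0.76 over all windows, and 1 was called higher in ESC and 0 in NSC (3 of all 100). An unadjusted p under 0.05 was reached by 4 of the 19 and 22 of all 100. DESeq2 called 12 of the 19 and 15 of all 100, of which 64 had no adjusted p with it. NSC lay below all ESC libraries in 12 of the 19 (15 of all 100) and above all of them in 0 (63 of all 100). The number of positive windows was between 14 and 19 over the alternatives, lowest with the distance band as library size and with a region of 500 kb. With the distance band the median over Stag1 was 0.20. Windows near the bait but outside Stag1 differed in the same direction. Those starting at 100540001 and 100560001 had log2 fold changes of 0.48 and 0.46. The median of all windows within 100 kb was 0.45, so these values do not set Stag1 apart from its distance.

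The excess of ESC over NSC within the gene lay mainly before position 100800536. This point, midway from the bait to the Stag1 end, is called the midpoint here. From the first Stag1 start to the bait, ESC libraries had 13.3%, 17.8% and 16.1% of the region and NSC 10.4% (9.70% to 11.2%). From the bait to the midpoint they had 18.0%, 19.2% and 20.03%, and NSC 14.6% (13.7% to 15.5%). From the midpoint to the end the values were 11.7%, 11.5% and 10.6% in ESC, while NSC had 10.6% (9.81% to 11.4%). The ESC mean was 0.694 percentage points higher, close to its SD of 0.591. The ESC mean minus NSC was 5.27 percentage points from the start to the bait and 4.53 from there to the midpoint. With each end counted once the 3 differences were 2.31, 5.14 and 2.56, but between 83.5% and 95.6% of the ends 25 kb to 50 kb from the bait had been seen in every library, so that count is bounded close to the bait. The window with the Stag1 end, which also holds the last annotated transcript start, had 1.33%, 1.37% and 1.08% in ESC against 1.09% for NSC, with a fold change of 0.21 on the log2 scale and an adjusted p of 0.530 (edgeR).

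None of the windows with the other annotated transcript starts of Stag1 that lie over 10 kb from the bait was called by edgeR. DESeq2 called those starting at 100780001 (adjusted p = 0.0334) and 100840001 (adjusted p = 0.0345), both higher in ESC. In chr9:100780001-100800000 the shares were 1.42%, 1.49% and 1.44% in ESC and 1.09% in NSC, a fold change of 0.40 on the log2 scale with an adjusted p of 0.247 (edgeR), the ESC libraries agreeing within a narrow range. In chr9:100840001-100860000 they were 0.989%, 1.27% and 1.19% in ESC and 0.795% in NSC (0.49, adjusted p = 0.237). In the windows starting at 100820001 and 100880001 NSC fell within the ESC range, with log2 fold changes of 0.02 and 0.05 that changed sign under some alternatives.

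**Figure D3:**
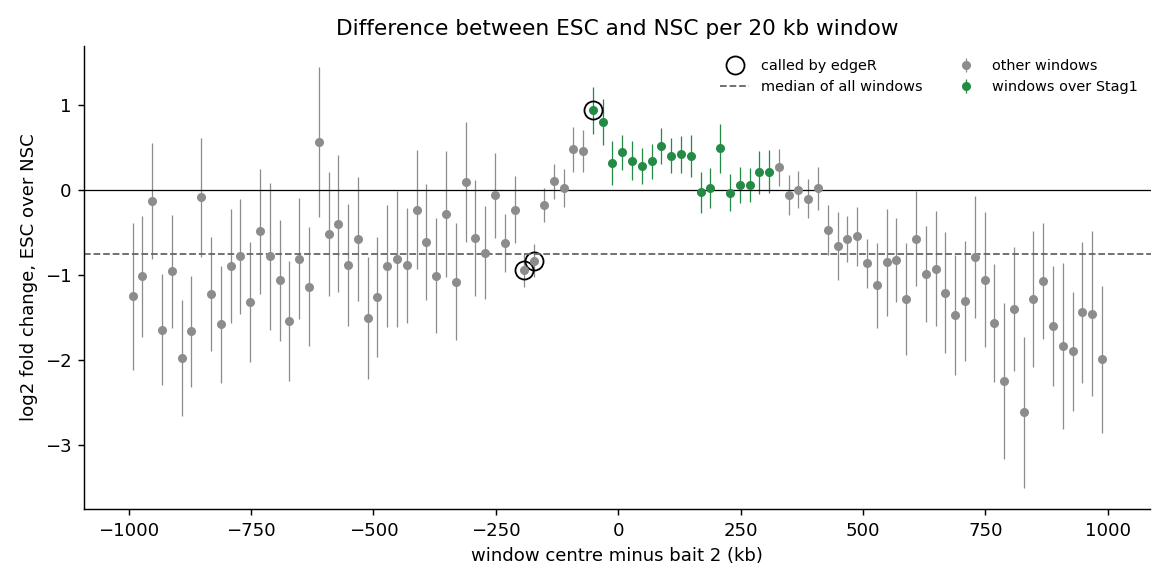
Log2 fold change of ESC over NSC from edgeR (y axis, bars are SE) for the 100 windows, against the distance of the window's centre from bait 2 in kb (x axis). Windows over Stag1 (green) lie between −0.03 and 0.93, the dashed line is the median of all windows at −0.76, and rings mark the 3 called windows.

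The genes around Stag1 divided by distance. Slc35g2, a member of a solute carrier family, lies 70.6 kb away and had 4.65%, 4.69% and 4.54% of the region in ESC and 4.04% (3.57% to 4.57%) in NSC. Nck1 had 8.78%, 8.51% and 9.45% in ESC and 8.33% (7.66% to 9.05%) in NSC. NSC was the lowest for both, but its interval covered the value of ESC 3 for Slc35g2 and those of ESC 1 and ESC 2 for Nck1.

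For the 20 kb around gene starts the split was sharper. Around the Nck1 start NSC had 5.48% (4.93% to 6.08%) and ESC 6.38%, 7.64% and 8.45%. Around the Slc35g2 start NSC had 4.19% and ESC 5.999%, 5.37% and 6.12%. NSC was below all ESC libraries around the starts of Nck1, Slc35g2 and Stag1, the 3 within 100 kb, and above all of them around the 6 others (Il20rb, Pccb, Msl2, Ppp2r3a, Sox14 and Cldn18), against 15% and 63% of all windows. At each of the 6 the NSC interval overlapped that of ESC 3, and at Pccb the values were 1.42% in NSC and 1.41% in ESC 3. The ESC mean minus NSC at these 6 starts was between −0.390 and −0.101 percentage points, and the differences at Il20rb and Pccb turned around when each end was counted once. In that setting the difference at the Msl2 start shrank from −0.379 to −0.047 and that at the Stag1 start from 3.48 to 1.26.

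More distant genes had higher shares in NSC. Il20rb had 2.77%, 2.27% and 2.13% in ESC and 3.82% (3.37% to 4.34%) in NSC. Ppp2r3a, a regulatory subunit of protein phosphatase 2A at 463 kb on the other side, had 3.89%, 2.98% and 2.74% in ESC and 5.94% (5.37% to 6.57%) in NSC. Its 8 windows all had negative fold changes, as did 74 of all 100, with a median of −0.83 (−0.76 over all). By edgeR 0 of the 8 were called (3 at an unadjusted p under 0.05, against 22 of all 100). Without ESC 1 edgeR called 6 of the 8, where it called 48 of all 100. DESeq2 called 0, with an adjusted p for 3 of the 8. However, only 5 of the 8 were negative with DESeq2 and 4 with the distance band as library size, a scaling that centres the windows of each band.

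Pccb, a mitochondrial carboxylase subunit 340 kb away, had 3.73%, 3.51% and 3.77% in ESC and 3.94% (3.48% to 4.46%) in NSC, an interval that covered the values of all 3 ESC libraries. Msl2, a subunit of a histone acetyltransferase complex, had 1.00%, 1.02% and 1.08% in ESC and 1.52% (1.24% to 1.86%) in NSC. Cldn18, a tight junction protein, had 0.403%, 0.404% and 0.416% in ESC and 0.745% (0.557% to 0.995%) in NSC. For Msl2 and Cldn18 the ESC libraries, ESC 1 included, agreed closely and NSC stood above them, but its interval overlapped those of all 3 ESC libraries. The Cldn18 shares of ESC 2 and ESC 3 rested on 13 and 15 UMIs.

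Counts were too few to say more of Sox14, a transcription factor gene with 1 to 4 UMIs per library, or of the part of Dzip1l in the region, with 2 to 19. The outer stretches of the region on both sides had more contacts in NSC. From the lower edge of the region to the Sox14 start the shares were 3.02%, 1.74% and 2.00% in ESC and 4.98% (4.46% to 5.56%) in NSC, and beyond the Ppp2r3a start they were 3.32%, 1.49% and 1.91% in ESC and 6.29% (5.71% to 6.93%) in NSC. Of the 50 windows beyond 500 kb, 49 had a negative fold change (74 of all 100) and NSC was above all ESC libraries in 45 (63 of all 100), yet 0 were called by edgeR (15 at an unadjusted p under 0.05), each resting on 20 to 184 UMIs. Without ESC 1 edgeR called 31, where over all 100 windows it called 48. DESeq2 gave an adjusted p to 1 of the 50 and called 0, so its count of calls says nothing here. Its fold changes were negative in 42 of the 50, with a median of −0.53. With the distance band as library size, which centres the windows of each band, 26 of the 50 were negative, with a median of −0.037.

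Beyond the region the sides differed. Of the UMIs between 1 Mb and 10 Mb from the bait, which numbered 3015, 753, 846 and 2812, those at 1 Mb to 2 Mb on the lower side made up 21.96%, 24.4% and 24.9% in ESC and 16.2% (14.9% to 17.6%) in NSC. On the higher side they made up 15.4%, 14.3% and 13.9% in ESC and 23.7% (22.1% to 25.3%) in NSC. The side favoured at this distance was the lower one in every ESC library and the higher one in NSC. ESC 1 lay with the other ESC libraries, and ESC 1 minus NSC was 5.78 percentage points on the lower side and −8.33 on the higher side. This distance was singled out after its values were seen and no test was run on it. Counting each fragment end once left differences of 7.35 and −8.53 percentage points.

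Armc8, Mras and Pik3cb are among the genes at this distance on the lower side, and Ephb1 covers much of the higher side. On the lower side the gap was widest at 1.2 Mb to 1.4 Mb (chr9:99241698-99441697), which holds Cep70, Esyt3 and Mras, with 5.64%, 7.17% and 7.45% in ESC and 3.34% (2.74% to 4.07%) in NSC. Mras, a small GTPase of the Ras family, had 1.79%, 3.85% and 3.66% in ESC and 0.925% (0.632% to 1.35%) in NSC, on 54, 29, 31 and 26 UMIs. Pik3cb, a catalytic subunit of phosphoinositide 3-kinase, had 2.26%, 1.99% and 2.48% in ESC and 1.53% (1.14% to 2.05%) in NSC, an interval that overlapped all 3 ESC intervals and covered the ESC 2 value. Esyt3 and Armc8 lay within the ESC range, with 1.09%, 0.664% and 1.06% against 0.925% for Esyt3 and 2.69%, 1.86% and 3.07% against 2.24% for Armc8. Of the 16 protein-coding genes at 1 Mb to 2 Mb on the lower side, NSC was below all ESC libraries in 4, above all in 2 and neither in 10, most of them on few UMIs. In the steps of 0.2 Mb from 1.6 Mb on, NSC fell within the ESC range.

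On the higher side the gap was widest next to the region. From 1.0 Mb to 1.2 Mb (chr9:101641699-101841698), a stretch with no protein-coding gene, ESC had 2.32%, 1.86% and 1.18% and NSC 5.01% (4.27% to 5.88%). Ephb1, an ephrin receptor of the nervous system, had 7.03%, 7.84% and 7.33% in ESC and 9.67% (8.63% to 10.8%) in NSC, on 212, 59, 62 and 272 UMIs. NSC was above all ESC libraries for both, but for Ephb1 its interval overlapped those of ESC 2 and ESC 3. Of the 5 protein-coding genes on this side NSC was above all ESC libraries in 3, below all in 1 and neither in 1.

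**Figure D4:**
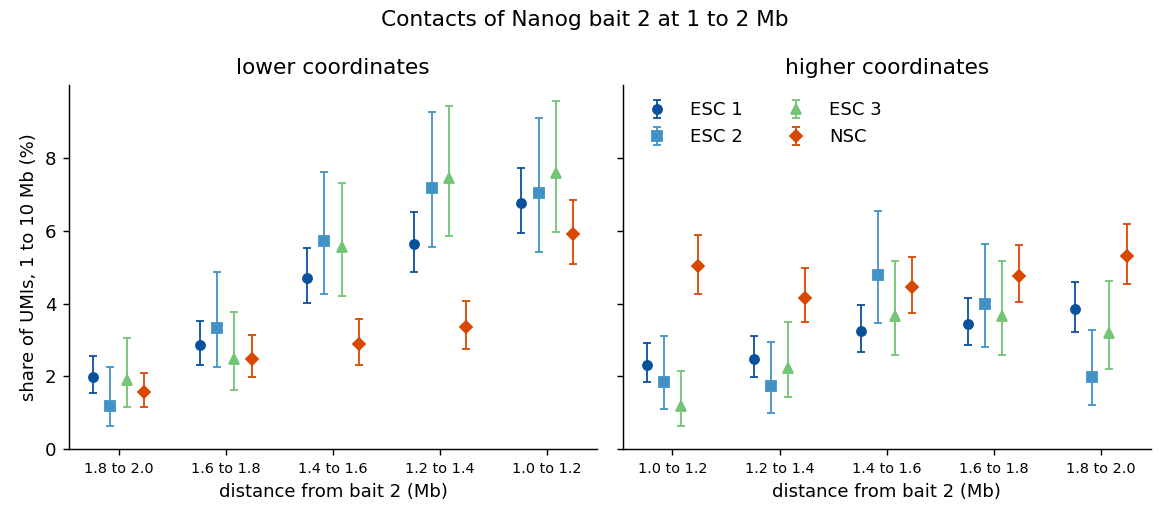
Share of the UMIs 1 Mb to 10 Mb from bait 2 (y axis, %) in steps of 0.2 Mb from 1 Mb to 2 Mb (x axis), left panel for lower and right panel for higher coordinates, with 95% Wilson intervals as bars. NSC (orange) is below every ESC library from 1.0 to 1.6 Mb on the lower side, and above them at 1.0 to 1.4 Mb and 1.6 to 2.0 Mb on the higher side.

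Single fragment ends were too thinly covered to compare. Of 5007 ends of the region seen in any library, 869 were seen in all 4, and 101 had at least 20 UMIs over the 4. The difference between the ESC mean and NSC was at most 0.132% of the region for any of these 101 ends. The end at 100606015, in an intron of Stag1 and 35.7 kb from the bait, had 4, 7 and 8 UMIs in ESC and 2 in NSC. The end at 100624020, 17.7 kb from the bait, had 11, 7 and 8 in ESC and 4 in NSC. The end at 100620866, 20.8 kb from the bait, was among those with the largest difference towards NSC, with 7, 3 and 5 in ESC and 10 in NSC. They are shown with 60 bases each as examples of the ends with the largest differences each way (chr9:100605985-100606044, chr9:100623990-100624049 and chr9:100620836-100620895, plus strand, all in introns of Stag1).
end 100606015: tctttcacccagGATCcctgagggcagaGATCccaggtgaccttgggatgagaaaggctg
end 100624020: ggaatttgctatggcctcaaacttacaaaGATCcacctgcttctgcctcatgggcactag
end 100620866: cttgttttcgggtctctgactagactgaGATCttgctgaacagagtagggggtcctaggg
No test was run on single ends.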

How the data were processed

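UMI-4C counts of bait 2 were analysed in 3 ESC libraries and 1 NSC library, grouped by their titles. The authors deposited 1 file per library with a count of UMIs, not normalised, for each pair of fragment ends. The submitters' processing notes name Bowtie2 and mm10, and the rule for collapsing UMIs is not given in the sources used here. Of the cis ends, 100% lay at GATC sites of GRCm38, against 0.443% to 0.554% after a move of 100 bp. Rows with the bait as second end were used, partners within 10 kb were left out, and genes came from GENCODE M21.

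Windows of 20 kb with at least 10 UMIs were tested with edgeR 4.0.16 (quasi-likelihood, robust, limma 3.58.1, R 4.3.3). DESeq2 1.42.0, Fisher's exact test on UMIs summed over ESC libraries (which ignores the spread between them), other library sizes, windows, regions and left-out libraries were alternatives. On simulated counts of 100 windows the test recovered 1% of 1.5-fold, 22.5% of 2-fold and 63.5% of 3-fold changes, and 0, 3 and 1 unchanged windows were called. Wilson intervals (95%) used Python 3.11.15 and scipy 1.17.1. Named windows were those called or holding a Stag1 start, the Stag1 end or another bait. Named ends were the 5 highest in each cell type and the 5 largest differences each way among ends with at least 20 UMIs. Members, lists and measures were chosen with earlier results of these data known.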

Additional observations from a re-analysis of the deposited data

How the results depend on the processing

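No paired analysis was possible because the NSC group of bait 2 has 1 library. Differences are ESC mean minus NSC unless stated. The count of called windows was 3, and became 15 with DESeq2 (64 windows had no adjusted p), 45 with Fisher's exact test, which covers counting error only, 8 with windows of 40 kb, and 0 with TMM factors, all UMIs outside 10 kb as library size, windows of 10 kb or each fragment end counted once. Leaving out 1 ESC library gave 1 to 48 calls (1 without ESC 3, 48 without ESC 1). With ESC 1 alone against NSC the differences were smaller: 9.98 percentage points for the share within 100 kb (15.4 with all), 3.94 for the share on the bait's chromosome (11.7), 7.44 for Stag1 (10.5), −0.18 for the decay slope (−0.27), 1.09 for the lower side (2.09) and −59.4 kb for the median distance (−76.1). With each end counted once the share within 100 kb differed by 9.40 and the median distance by −96.7 kb, and the lower side (−0.682), the bands at 100 kb to 200 kb (3.56) and 200 kb to 500 kb (0.824), and the starts of Il20rb (0.305) and Pccb (0.00461) changed sign. With a region of 500 kb, the band at 100 kb to 200 kb differed by −5.01 (−1.81 in the full region). The band at 200 kb to 500 kb differed by −6.98 (−3.00). In that setting Stag1 differed by 6.36, the lower side by 0.881 and the median distance by −33.2 kb. Stag1 from the midpoint to its end differed by −0.739 there, and the windows starting at 100820001 and 100880001 turned to −0.15 and −0.11. With 20 kb left out the slope differed by −0.38. The window starting at 100640001 turned to −0.066 with distance bands, and that at 100820001 was between −0.019 (without ESC 2) and 0.044 (without ESC 3) when 1 library was left out. The stretches at the edges give no value with a region of 500 kb. Settings for gene starts and for 1 Mb to 2 Mb were added after seeing the data. The causes were not tested. In the self-test, changes of 2-fold or less were mostly missed on average over all 100 windows. Recovery was not given separately for the denser windows near the bait.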
